A study of Mus musculus with 157 samples.

Results

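The genes of MHC class I antigen presentation were followed at RNA polymerase II (Pol II) through retinoic acid (RA) treatment of mouse embryonic stem (ES) cells. The group has 9 genes: the heavy chain genes H2-K1 and H2-D1, the heavy chain pseudogene H2-Bl, the light chain gene B2m, the transporter genes Tap1 and Tap2, the tapasin gene Tapbp, and the immunoproteasome genes Psmb8 and Psmb9. They were taken by symbol from 4 count tables, and each gene is represented by its transcript with the highest mean raw count in that table. The 9 genes have 11 transcript rows, out of 33687 to 33985 rows per table, and the tables hold 23643 to 23887 genes with a symbol.

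MHC class I molecules show peptides from inside the cell to T cells and natural killer cells. A heavy chain pairs with beta-2 microglobulin, the product of B2m, and takes up peptides that are cut by the proteasome, carried into the endoplasmic reticulum by the Tap1 and Tap2 transporter and loaded with the help of tapasin. Psmb8 and Psmb9 encode catalytic subunits that replace their constitutive counterparts in the immunoproteasome. ES cells are known for low surface class I, and interferons are the best known inducers of the whole pathway in other cells.

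The series holds 157 samples of E14 cells, an ES line from 129 mice with no genetic change named in the labels, and the 4 tables hold columns for 53 of them. Cells were grown on gelatin with serum and leukaemia inhibitory factor, and were untreated (0 h) or given 1 µM RA for 2, 4, 6, 24, 48 or 72 h. Crosslinked chromatin was precipitated with antibodies to the N-terminal domain of Pol II (NTD, total polymerase), to serine 5 phosphorylation of its C-terminal repeat (Ser5p, found mainly near start sites) or to serine 2 phosphorylation (Ser2p, found mainly on elongating polymerase). NTD had 2 libraries at 0, 2, 24 and 72 h and 3 at 4, 6 and 48 h. The Ser5p and Ser2p sets matched this, but with 3 libraries at 2 h. NTD and Ser5p reads were counted within 1 kb of transcription start sites (TSS), and NTD and Ser2p reads over gene bodies. The values are polymerase on DNA, not RNA or protein.

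Of the 9 genes, 8 lie on chromosome 17 in the mm10 annotation. H2-Bl is at chr17:36080110-36084249, H2-K1 at chr17:33996012-34000619 and H2-D1 at chr17:35263094-35267497. B2m is at chr2:122147687-122153082. Tapbp is at chr17:33919478-33929290 and Tap2 at chr17:34204479-34216321. Psmb9 (chr17:34182030-34187330) and Tap1 (chr17:34187556-34197225) are transcribed away from each other, and Psmb8 follows at chr17:34198195-34201454.

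Upstream sequences are shown for H2-K1, H2-D1 and B2m, whose polymerase at the start rose at 48 and 72 h, and for the interval between the divergent starts of Psmb9 and Tap1, where no change passed the test. They are from RefSeq (GRCm38.p6), which had promoter entries for 7 of the 9 genes. Capitals mark 4 motifs on either strand: GGGATTCCC (an NF-kappaB-type site), AANNGAAA (a core bound by interferon regulatory factors), TGACGC and CCAAT. None of these 4 motifs lies inside another. The first 3 lines give the 250 bases before the start in the direction of transcription, at chr17:34000348-34000597 (minus strand), chr17:35262844-35263093 (plus) and chr2:122147437-122147686 (plus), and the last gives the 225 bases at chr17:34187331-34187555 (plus). For H2-K1 the start is that of a promoter entry. The annotated gene reaches to chr17:34000619, so the H2-K1 stretch lies inside the gene span given above.
H2-K1: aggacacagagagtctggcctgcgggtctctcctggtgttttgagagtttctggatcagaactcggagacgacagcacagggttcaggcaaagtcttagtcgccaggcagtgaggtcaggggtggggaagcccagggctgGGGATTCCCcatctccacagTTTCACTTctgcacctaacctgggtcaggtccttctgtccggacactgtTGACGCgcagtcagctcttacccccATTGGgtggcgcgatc
H2-D1: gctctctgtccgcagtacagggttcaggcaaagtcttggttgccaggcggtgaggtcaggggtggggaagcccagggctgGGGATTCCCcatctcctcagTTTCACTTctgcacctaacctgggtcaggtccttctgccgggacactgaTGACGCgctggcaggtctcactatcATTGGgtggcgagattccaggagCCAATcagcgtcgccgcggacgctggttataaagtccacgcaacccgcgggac
B2m: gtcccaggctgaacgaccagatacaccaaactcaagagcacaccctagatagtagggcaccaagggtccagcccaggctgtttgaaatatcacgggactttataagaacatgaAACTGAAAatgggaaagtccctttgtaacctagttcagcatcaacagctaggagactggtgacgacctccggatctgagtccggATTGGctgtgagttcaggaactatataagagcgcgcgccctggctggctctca
Psmb9 to Tap1: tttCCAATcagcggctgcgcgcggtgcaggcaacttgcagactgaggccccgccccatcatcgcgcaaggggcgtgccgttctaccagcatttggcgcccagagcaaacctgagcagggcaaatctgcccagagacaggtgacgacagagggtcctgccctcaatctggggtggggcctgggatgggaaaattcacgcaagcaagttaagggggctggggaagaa
H2-K1 and H2-D1 shared 170 of 190 aligned bases in these stretches (89.5%), while B2m shared 125 of 227 (55.1%) with H2-K1 and 132 of 222 (59.5%) with H2-D1. In windows from 250 bases before to 50 bases after the start, GGGATTCCC was found in H2-K1 and H2-D1 and in 116 of all 32851 promoters (0.353%). AANNGAAA was found in H2-K1, H2-D1 and B2m, and in 23.9% of promoters. TGACGC was found in H2-K1 and H2-D1 (7.4% of promoters), and CCAAT in 6 of the 7 genes with an entry, Psmb8 excepted (37.4% of promoters). AGGTCA, the half-site of nuclear receptors, was found in H2-K1 and H2-D1 and in 16.3% of promoters. The motifs were chosen after these sequences had been seen, and a match describes letters, not binding. The sequence is that of the reference, and the alleles of E14 cells were not read.

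Some facts about the libraries bear on the values. Total counts per library were 1088159 to 3210580 (NTD) and 1504737 to 3347830 (Ser5p) at TSS, and 11684907 to 25696364 (NTD) and 18045745 to 28745658 (Ser2p) over gene bodies. All 9 genes passed the low-count filter in each table, with 6 to 445 reads per library, and NTD counts at Psmb8 and Tap2 starts were among the lowest. The labels do not say whether replicate libraries come from separate cultures, so p-values cover only the spread between libraries, which may be technical. NTD 0 h replicate 4 and 72 h replicate 3 stood apart from the other 15 NTD libraries. This was seen in the 118 transcripts called lower at 6 h against 0 h in NTD at TSS in edgeR. Their median was 107.4 and 85.1 CPM (reads scaled to a common library total) in the 2 libraries and 11.8 to 14.7 in the others. The transcripts were picked from the same counts, so a high value at 0 h follows from the choice. The 72 h libraries were not part of that contrast. These 2 libraries are 1 of the 2 at each end of the NTD time course, so NTD results are also given without both. The Ser5p and Ser2p libraries carry the same hours and replicate numbers as NTD libraries, and the labels do not say whether same-numbered ones came from the same cells, so the antibodies are not independent series. Of 10 ES cell markers, 7 fell at TSS in NTD at 72 h (4 without those 2 libraries), their sum going from 648 to 880 CPM at 0 h to 276 to 368 CPM. Of 10 blood and immune cell markers, 9 were tested at 72 h and 0 were called in edgeR, with 2 at an unadjusted p under 0.05 and 0 of 5 in DESeq2. The 9 blood markers other than Cd68 summed to 71.2 to 84.5 CPM at 0 h and 56.4 to 82.0 CPM at 72 h. Of 10 fibroblast markers, 3 rose (Pdgfra, Fbln1 and Acta2), the sum going from 69.2 to 74.6 CPM at 0 h to 112 to 117 CPM at 72 h, and their part in the results below was not tested. Without those 2 libraries 1 of the 10 rose (Pdgfra), and DESeq2 called 0 of the 1 with an adjusted p. In Ser5p 0 of the 10 rose or fell in edgeR at 72 h, with 3 at an unadjusted p under 0.05 and 0 of 5 in DESeq2, and the sum was 131 to 147 CPM at 0 h and 124 to 138 CPM at 72 h. Pdgfra fell in Ser5p at 48 h (0.527-fold, edgeR adjusted p = 0.0372). In such bulk samples, a change in the share of cells with polymerase on a gene and a change in the amount per cell cannot be told apart.

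At start sites, total polymerase rose over the heavy chain genes and B2m, and none of the 5 genes of peptide supply passed the test. In NTD at TSS, 4 of the 9 genes were called higher at 48 h and at 72 h against 0 h: H2-Bl, H2-K1, H2-D1 and B2m (edgeR quasi-likelihood test, Benjamini-Hochberg adjusted p under 0.05). Over all 31868 transcripts tested, 4.67% were called higher at 48 h and 5.66% at 72 h. The median log2 change of the 9 genes was 0.47 at 48 h and 0.39 at 72 h, against -0.03 and -0.04 over all transcripts. At 24 h 3 were called higher (0.938% of all transcripts), and at 2, 4 and 6 h 1, which was H2-Bl each time (0.0533%, 0.273% and 0.355%). No gene of the 9 was called lower at any time against 0 h, where 0.267%, 0.436%, 0.37%, 0.581%, 4.92% and 3.47% of all transcripts were called lower at 2, 4, 6, 24, 48 and 72 h. Without both libraries that stood apart, 7 of the 14 calls at single times were still under the threshold: H2-Bl at 6, 24, 48 and 72 h, H2-K1 at 48 h and B2m at 48 and 72 h. That fit leaves 1 library at 0 h and 1 at 72 h, which are assumed to vary like the libraries of the other times, so its 72 h values compare 1 library with 1. Without 0 h replicate 4 alone, 8 held.

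**Figure D1:**
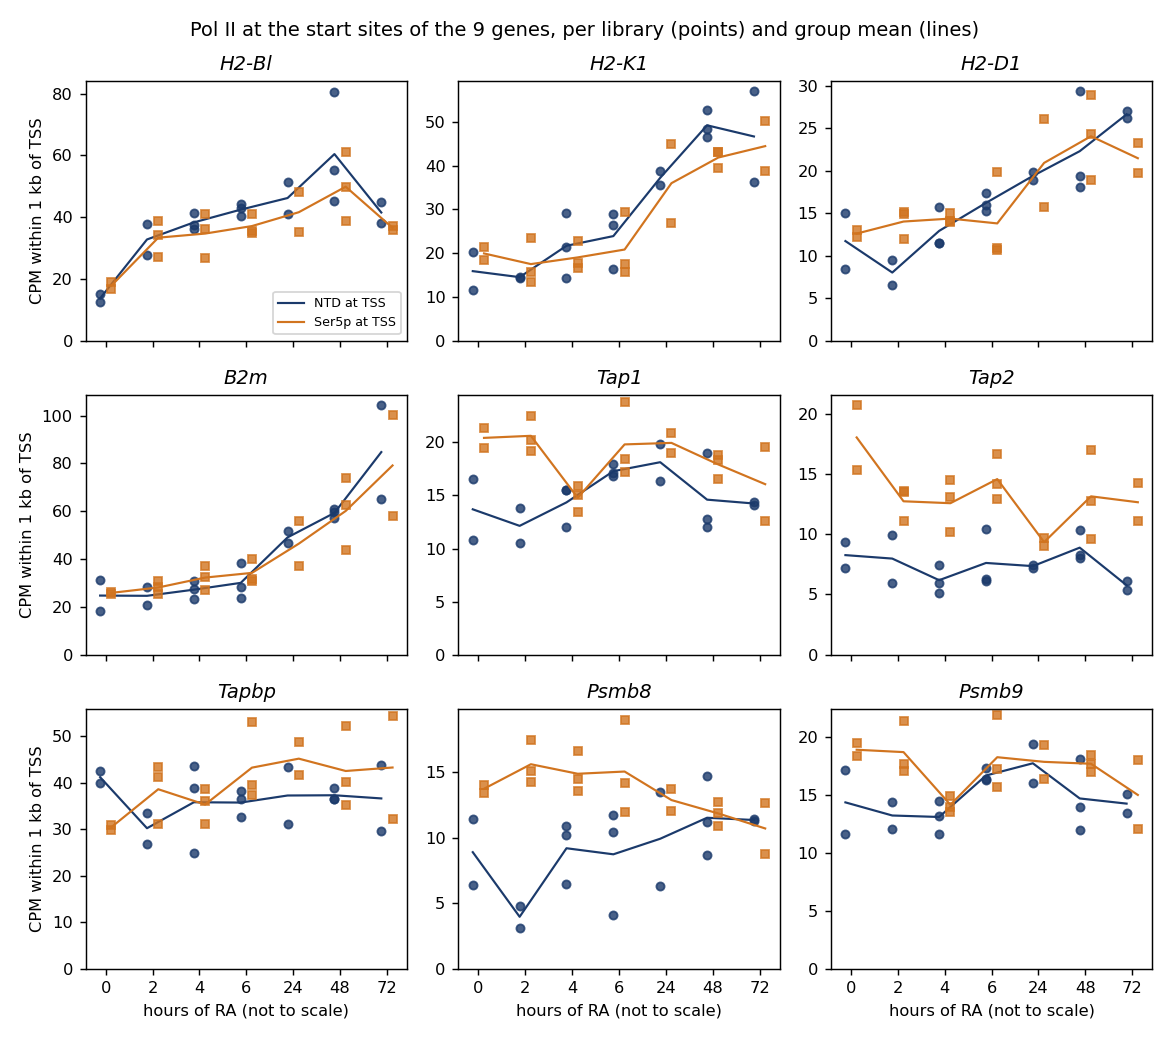
CPM within 1 kb of the start (y axis, linear, a separate scale per gene) at each hour of RA (x axis, not to scale) for the 9 genes; circles are single NTD libraries, squares single Ser5p libraries, and lines join group means. NTD at B2m goes from 18.4 and 31.1 CPM at 0 h to 65.2 and 104 CPM at 72 h, while Tapbp stays between 25.0 and 43.8 CPM at all times.

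H2-Bl, annotated as a transcribed pseudogene of a class I heavy chain, was the first to pass the test. NTD at its start was 15.0 and 12.4 CPM at 0 h, 37.7 and 27.8 CPM at 2 h, 37.4, 36.2 and 41.3 CPM at 4 h, and 42.8, 40.2 and 44.2 CPM at 6 h. Later values were 41.1 and 51.3 CPM at 24 h, 45.3, 80.6 and 55.3 CPM at 48 h, and 45.0 and 38.0 CPM at 72 h. Every treated library lay above both untreated ones. The change was 2.39-fold at 2 h (log2 1.26 ± 0.28 SE, adjusted p = 0.0201), 3.11-fold at 6 h (1.64 ± 0.25, 9.31e-05), 4.53-fold at 48 h (2.18 ± 0.24, 9.9e-09) and 3.01-fold at 72 h (1.59 ± 0.27, 3.96e-05) in edgeR. The 2 h call is the least firm. Its adjusted p was 0.367 in DESeq2, 0.454 with the authors' scale factors and 0.732 without both libraries that stood apart (log2 1.11). With 1 library left out it was 0.9998 (0 h replicate 4), 0.766 (2 h replicate 1) or 0.222 (2 h replicate 4) in edgeR. At 4 h the adjusted p was 0.000269 with all libraries (log2 1.49), 0.0620 without both, and 0.141 without 0 h replicate 4.

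H2-K1 and H2-D1, the classical heavy chains, were first called at 24 h and 48 h. NTD at the H2-K1 start was 20.2 and 11.6 CPM at 0 h, 14.4 and 14.7 CPM at 2 h, and 28.9, 26.5 and 16.4 CPM at 6 h. It was 35.7 and 38.8 CPM at 24 h, 46.6, 52.8 and 48.3 CPM at 48 h, and 36.3 and 57.1 CPM at 72 h. All libraries from 24 h on were above those from 0 to 6 h. The change at 24 h was 2.39-fold (log2 1.26 ± 0.28, edgeR adjusted p = 0.0082) and was not called without both libraries that stood apart (0.154), 0 h replicate 4 (0.262) or 24 h replicate 3 (0.183). H2-K1 was 3.17-fold higher at 48 h (log2 1.67 ± 0.27, edgeR adjusted p = 1.38e-05, or 1.32 and 0.0019 without both libraries) and 3.07-fold at 72 h (1.62 ± 0.28, 6.13e-05, or 0.85 and 0.282 without both).

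For H2-D1, NTD was 15.0 and 8.40 CPM at 0 h, 19.3, 29.4 and 18.1 CPM at 48 h, and 26.2 and 27.0 CPM at 72 h. The lower 0 h value came from replicate 4, and the 48 h and 72 h libraries were above both. The change was 2.03-fold at 48 h (log2 1.02 ± 0.28, edgeR adjusted p = 0.0105) and 2.33-fold at 72 h (1.22 ± 0.29, 0.00317). Without both libraries that stood apart it was 0.67 and 0.80 on the log2 scale, and neither passed (edgeR adjusted p = 0.279 and 0.385). The 48 h call was lost without 0 h replicate 4 (0.334) or 48 h replicate 2 (0.186) alone, and the 72 h call without 0 h replicate 4 (0.176). The entry named H2-L held the same count as H2-D1 in 11 of 17 NTD libraries at TSS and differed by at most 1 read in the rest. At TSS these 2 entries are therefore nearly 1 measurement and cannot be told apart. The labels mention uniquely mapped reads in track names, and how reads of near-identical class I genes were assigned is not given in the sources used here, so single heavy chain values are uncertain.

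B2m, which lies outside the MHC, on chromosome 2, had the largest fold change of the 9 genes in NTD at TSS at 72 h with all libraries. Without both libraries that stood apart H2-Bl had a larger one (log2 1.58, against 1.07 for B2m), and over gene bodies H2-K1 and B2m were nearly level. Patl2 overlaps it, so the counts of both genes can share reads. NTD at its start was 31.1 and 18.4 CPM at 0 h, 21.0 and 28.3 CPM at 2 h, and 23.7, 38.2 and 28.3 CPM at 6 h. It was 46.5 and 51.6 CPM at 24 h, 57.3, 61.0 and 59.6 CPM at 48 h, and 65.2 and 104 CPM at 72 h. The libraries up to 6 h overlapped with the untreated ones, and all those from 24 h on lay above them. B2m was 2.02-fold higher at 24 h (log2 1.01 ± 0.25, edgeR adjusted p = 0.0174), 2.44-fold at 48 h (1.29 ± 0.23, 9.74e-05) and 3.55-fold at 72 h (1.83 ± 0.24, 4.54e-07). Without both libraries these were 0.67 (edgeR adjusted p = 0.241), 0.96 (0.0165) and 1.07 (0.0450). The 24 h call was also lost without 0 h replicate 4 (0.340) or 24 h replicate 3 (0.313) alone.

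The comparison of 48 h with 6 h uses neither the 0 h nor the 72 h libraries in its contrast. In NTD at TSS, 2 of the 9 genes rose between these times, and 0 fell, where 3.6% of all transcripts were called higher and 6.52% lower: H2-K1 by 2.11-fold (log2 1.08 ± 0.22, edgeR adjusted p = 0.000568) and B2m by 1.97-fold (0.98 ± 0.20, 0.000578). H2-Bl was 1.46-fold higher, which did not pass (edgeR adjusted p = 0.0505 with all libraries, 0.0147 without both that stood apart). Between 72 h and 48 h 0 of the 9 were called in edgeR (0.499% of all transcripts higher and 0.0439% lower), with 2 at an unadjusted p under 0.05 and 0 of 3 with an adjusted p in DESeq2. H2-Bl, H2-K1, H2-D1 and B2m were also the 4 genes called in the test for any change over the time course, where 14.9% of transcripts were called. In Ser5p the test for any change called the same 4 (14.5% of transcripts), in NTD over gene bodies H2-Bl, H2-K1 and B2m (7.81%), and in Ser2p H2-Bl and H2-K1 (7.53%). In NTD at TSS all 4 were called without both libraries too, with adjusted p of at most 0.000220.

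None of the genes of peptide supply was called at its start. Tap1 and Tap2 encode the transporter, and NTD at Tap1 was 16.6 and 10.8 CPM at 0 h, 19.9 and 16.4 CPM at 24 h, and 14.1 and 14.4 CPM at 72 h. At Tap2 it was 9.33 and 7.20 CPM at 0 h and 5.38 and 6.15 CPM at 72 h. The 72 h libraries of Tap1 lay between the untreated ones, and those of Tap2 below them. Tapbp had 42.5 and 40.0 CPM at 0 h and 29.6 and 43.8 CPM at 72 h. Psmb8 had 11.4 and 6.40 CPM at 0 h and 11.4 and 11.3 CPM at 72 h, and Psmb9 17.1 and 11.6 CPM at 0 h and 13.4 and 15.0 CPM at 72 h. For each of these 3 genes the groups overlapped or touched. Over 30 tests of these 5 genes against 0 h, edgeR called 0, with 1 at an unadjusted p under 0.05, and DESeq2 called 0 of 21 with an adjusted p. At 72 h their log2 changes ran from -0.47 (Tap2) to 0.39 (Psmb8), with 95% intervals reaching from -1.27 to 1.15, so the intervals of the low genes include 2-fold changes. The starts of Tap1 and Psmb9 lie 226 bases apart and share 1774 of the 2000 bases of their windows, so their TSS counts are nearly 1 measurement. Gm19412, a noncoding RNA gene, overlaps the start of Tapbp, and Zbtb22 lies 152 bases from Tapbp, so Tapbp counts at TSS can include their reads. Tap2 and Psmb8 at 0 h (means of 8.3 and 8.9 CPM) were at the level of single blood markers other than Cd68 and Cd79a, which had 3.4 to 11.1 CPM in windows of the same length.

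Ser5p at TSS was higher at the same 4 genes at 48 h. H2-Bl had 16.7 and 18.9 CPM at 0 h, 34.3, 38.7 and 27.0 CPM at 2 h, 38.9, 61.0 and 49.7 CPM at 48 h, and 37.2 and 35.9 CPM at 72 h. H2-K1 had 18.5 and 21.4 CPM at 0 h, 39.5, 43.1 and 43.0 CPM at 48 h, and 38.8 and 50.2 CPM at 72 h. B2m had 25.5 and 26.2 CPM at 0 h, 43.8, 62.8 and 73.8 CPM at 48 h, and 57.9 and 100 CPM at 72 h. In all 3 genes the 48 and 72 h libraries lay above the untreated ones. H2-D1 had 13 and 12.2 CPM at 0 h, 24.3, 28.9 and 18.9 CPM at 48 h, and 19.7 and 23.2 CPM at 72 h. These were also above the untreated values, with less distance.

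At 48 h Ser5p was called higher at 4 of the 9 genes (6.85% of all 32774 transcripts tested), at 24 and 72 h at 3 (3.59% and 5.1%), and at 2, 4 and 6 h at 0 (0.0305%, 0.0122% and 0.0488%). None was called lower, against 0%, 0.00305%, 0.0061%, 3.14%, 5.37% and 3.87% of all transcripts at 2, 4, 6, 24, 48 and 72 h. H2-Bl was 2.83-fold higher at 48 h (log2 1.50 ± 0.24, edgeR adjusted p = 4.3e-05) and B2m 3.06-fold at 72 h (1.61 ± 0.26, 4.84e-05). H2-K1 was 2.11-fold higher at 48 h (1.08 ± 0.25, 0.0034) and 2.24-fold at 72 h (1.17 ± 0.27, 0.00383). H2-D1 passed at 48 h (1.90-fold, 0.93 ± 0.29, 0.026) and not at 72 h (1.70-fold, 0.131). At the early times H2-Bl was 1.87-fold higher at 2 h (edgeR adjusted p = 0.312) and 2.09-fold at 6 h (0.0664), and 1, 1 and 2 of the 9 genes had an unadjusted p under 0.05 at 2, 4 and 6 h. DESeq2 called 0 of 3 and 0 of 2 genes with an adjusted p at 2 and 4 h, and 1 of 4 at 6 h. At 24 h the genes called were H2-Bl (2.38-fold, edgeR adjusted p = 0.00563), H2-K1 (1.86-fold, 0.0404) and B2m (1.82-fold, 0.0392). Leaving out 0 h replicate 1 or 4 reduced the 10 calls to 4 and 5, while those of B2m at 48 and 72 h held in all 18 fits without 1 library. The 5 genes of peptide supply had 0 calls in 30 tests, with 5 at an unadjusted p under 0.05 and 0 of 14 in DESeq2. Tap2 at 24 h was at 0.524-fold, just short of the threshold (edgeR adjusted p = 0.0535).

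From 6 h to 48 h, Ser5p rose at 3 of the 9 genes (3.81% of all transcripts): H2-K1 by 2.02-fold (edgeR adjusted p = 0.00177), B2m by 1.77-fold (0.00683) and H2-D1 by 1.73-fold (0.0378). The H2-D1 call was lost without 48 h replicate 1 or 2 or 6 h replicate 3 or 4 (edgeR adjusted p up to 0.209) and in DESeq2 (0.0703). None fell, where 3.21% of transcripts did. The change of Ser5p was compared with that of NTD in 1 model over both tables. The difference in log2 change, Ser5p minus NTD, was called for 0 of 9 genes at 48 h and at 72 h (edgeR; 0.384% and 0.0884% of transcripts lower, 0.0152% and 0% higher), with 1 and 0 at an unadjusted p under 0.05. With libraries of the same hour and number as a block, 0 of 9 were called at either time in edgeR (2.43% and 1.48% of transcripts lower, 1.06% and 0.177% higher), with 3 and 1 at an unadjusted p under 0.05. For B2m at 72 h the difference was -0.26 (95% interval -1 to 0.47), and 0.61 without both NTD libraries that stood apart. For H2-Bl at 48 h it was -0.74 ± 0.36 (unadjusted p = 0.0468, edgeR adjusted p = 0.61).

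**Figure D2:**
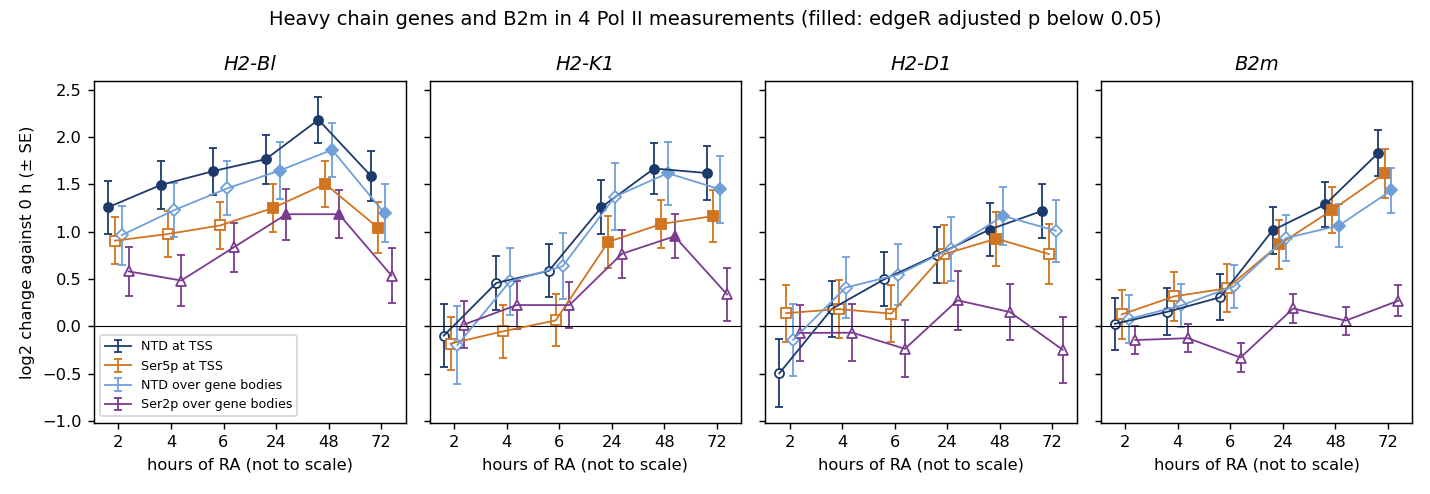
Log2 change against 0 h with its standard error (y axis) at each hour of RA (x axis, not to scale) for H2-Bl, H2-K1, H2-D1 and B2m in the 4 tables; filled symbols have an edgeR adjusted p under 0.05. NTD and Ser5p at TSS reach 1.83 and 1.61 for B2m at 72 h, while Ser2p over its body is at 0.27.

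Over gene bodies, NTD showed the same 4 genes at 48 h, with fewer calls at other times. Gene body counts include the region of the start site. H2-Bl had 2.93 and 3.59 CPM at 0 h, 8.79, 17.6 and 8.90 CPM at 48 h, and 7.12 and 7.83 CPM at 72 h. B2m had 4.76 and 4.26 CPM at 0 h, 8.79, 11 and 8.30 CPM at 48 h, and 8.68 and 15.5 CPM at 72 h. H2-K1 had 2.50 and 1.97 CPM at 0 h, 5.68, 9.19 and 5.31 CPM at 48 h, and 4.25 and 7.67 CPM at 72 h. In each of these genes the treated libraries named lay above the untreated ones, and 48 h replicate 2 was the highest of its group, as it was for H2-Bl in all 4 tables. At 48 h 4 of the 9 genes were called higher (1.72% of all 31843 transcripts tested), at 72 h 3 (2.87%) and at 24 h 1 (0.261%). At 2, 4 and 6 h 0 were called in edgeR (0%, 0.0188% and 0.0691%), with 1, 1 and 2 at an unadjusted p under 0.05 and 0 of 9, 1 of 8 and 1 of 7 in DESeq2, and 0 were lower at any time (0%, 0%, 0%, 0.00942%, 2.02% and 1.64% from 2 to 72 h).

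H2-Bl rose 3.64-fold at 48 h (log2 1.86 ± 0.28, edgeR adjusted p = 0.00173), H2-K1 3.07-fold (1.62 ± 0.33, 0.0131), H2-D1 2.24-fold (1.17 ± 0.31, 0.0485) and B2m 2.09-fold (1.06 ± 0.23, 0.0156). At 72 h B2m was 2.71-fold higher (1.44 ± 0.24, 0.00375), H2-K1 2.72-fold (1.45 ± 0.35, 0.0315) and H2-Bl 2.29-fold (1.19 ± 0.31, 0.0395). These calls rest on few libraries. Of the 8 calls against 0 h, 2 held without both libraries that stood apart (H2-Bl and B2m at 48 h, with edgeR adjusted p = 0.0176 and 0.0446), 2 with 0 h replicate 1 left out and 1 with 0 h replicate 4 left out. In fits without 2 h replicate 1 or 4, 4 h replicate 3 or 6 h replicate 1 or 4 there were 5. H2-D1 at 48 h was called in 3 of 17 fits that left out 1 library. From 6 h to 48 h 1 gene, H2-K1, was called (1.98-fold, edgeR adjusted p = 0.0406, with 3.77% of transcripts higher and 6% lower), and it was called in 7 of the 17 such fits. From 48 h to 72 h 0 of the 9 were called in any other table (0.0122% of transcripts higher and 0.00305% lower in Ser5p, 0.00314% and 0% in NTD over gene bodies, 0% in Ser2p), with 1, 1 and 2 at an unadjusted p under 0.05 in edgeR and 0 in DESeq2. The 5 genes of peptide supply had 0 calls in 30 edgeR tests, with 2 at an unadjusted p under 0.05 and 0 of 27 in DESeq2.

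Levels per length are given as the FPKM (fragments per kilobase, scaled for library depth) of the authors' deposited table, with the mean and SD of 2 libraries computed here. How reads of near-identical class I genes were assigned is not given, so the places of H2-Bl, H2-K1 and H2-D1 are uncertain. Tapbp and B2m overlap other genes, Gm19412 and Patl2, and can share their reads. At 0 h NTD over the body of Tapbp was highest (1.93 ± 0.0169), followed by B2m (1.17 ± 0.0843), H2-Bl (1.12 ± 0.167), Psmb9 (0.831 ± 0.234), Tap1 (0.741 ± 0.0118), H2-K1 (0.722 ± 0.116), Tap2 (0.599 ± 0.0871), Psmb8 (0.586 ± 0.157) and H2-D1 (0.499 ± 0.174). Only Tapbp stood clear of its neighbour by a wide margin, and from Psmb9 down each gene overlapped with the next. At 72 h the order in the authors' deposited table was B2m (3.21 ± 1.37), H2-Bl (2.63 ± 0.259), Tapbp (2.11 ± 0.442), H2-K1 (1.98 ± 0.859), H2-D1 (1.01 ± 0.115), Psmb9 (0.833 ± 0.0727), Tap1 (0.655 ± 0.0383), Tap2 (0.560 ± 0.0254) and Psmb8 (0.557 ± 0.0992). B2m overlapped with H2-Bl, Tapbp with H2-K1, and Tap2 with Psmb8, and the other neighbours did not overlap.

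Ser2p over gene bodies, the mark of elongating polymerase, gave fewer calls. At 24 h 2 of the 9 genes were called higher (9.02% of all 32123 transcripts tested), at 48 h 2 were called higher (1.41%) and 1 lower (0.346%), and at 72 h 0 were called in edgeR (1.28% higher, 0.342% lower), with 1 at an unadjusted p under 0.05 and 0 of 6 in DESeq2. At 2, 4 and 6 h 0 of the 9 and 0% of transcripts were called in edgeR, with 4, 1 and 3 of the 9 at an unadjusted p under 0.05 and 0 of 1, 0 of 3 and 0 of 7 in DESeq2. H2-Bl had 1.64 and 2.82 CPM at 0 h, 4.95 and 5.25 CPM at 24 h, 4.12, 7.41 and 3.74 CPM at 48 h, and 3.36 and 3.16 CPM at 72 h, with all treated libraries named above the untreated ones. Its change was 2.27-fold at 24 h (log2 1.18 ± 0.27, edgeR adjusted p = 0.0235) and at 48 h (1.18 ± 0.25, 0.0278), and 1.45-fold at 72 h (adjusted p = 0.349). H2-K1 had 1.23 and 1.01 CPM at 0 h and 1.77, 2.96 and 1.74 CPM at 48 h, all above the untreated values, and was 1.93-fold higher (0.95 ± 0.23, 0.0488). From 6 h to 48 h H2-K1 was the 1 gene called higher, by 1.65-fold (edgeR adjusted p = 0.0424, 2.42% of transcripts higher and 3.01% lower), and this held in 7 of 18 fits without 1 library.

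B2m had Ser2p of 3.78 and 4.38 CPM at 0 h, 4.36, 4.51 and 3.89 CPM at 48 h, and 4.33 and 5.53 CPM at 72 h. The groups overlapped, and the change at 72 h was 1.21-fold (log2 0.27 ± 0.16, edgeR adjusted p = 0.391). Its log2 change in Ser2p was below that in NTD by more than the standard error, with a difference of -0.99 ± 0.27 at 48 h in edgeR (95% interval -1.52 to -0.45, unadjusted p = 0.00129) and -1.14 ± 0.29 at 72 h (-1.71 to -0.57, unadjusted p = 0.0006). Neither passed over all transcripts with libraries taken as independent (edgeR adjusted p = 0.979 and 1.00), and 0% of transcripts were called in either direction. With libraries of the same hour and number as a block the differences were -0.98 ± 0.20 and -1.12 ± 0.21, and B2m was the 1 gene of 9 called at each time (edgeR adjusted p = 0.0379 and 0.0416, with 0.0745% and 0.0621% of transcripts lower and 0.518% and 0.0155% higher). Without both NTD libraries that stood apart the 72 h difference was -0.59. With that block as well, the same libraries left out, it was -0.81 at 48 h and -0.66 at 72 h, not called. Fits without both libraries have 1 NTD library at 0 h and 1 at 72 h, so they cannot decide whether B2m differed. The same difference had an unadjusted p under 0.05 for 3 of 9 genes at 48 h and 4 of 9 at 72 h without the block. Among the 35 fits that left out 1 library, B2m at 72 h was called without NTD 72 h replicate 1 (-1.47, edgeR adjusted p = 0.0293).

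Tapbp and Psmb9 were called in Ser2p alone. Tapbp had 10.598 and 10.104 CPM at 0 h and 15.3 and 16.4 CPM at 24 h, a 1.53-fold rise (log2 0.61 ± 0.19, edgeR adjusted p = 0.0481). At 72 h its libraries, 10.6 and 15.5 CPM, overlapped with the untreated ones. Psmb9 had 3.96 and 3.92 CPM at 0 h, 2.73, 2.42 and 2.47 CPM at 48 h, and 2.65 and 2.53 CPM at 72 h, all lower than the untreated libraries. Its change was 0.647-fold at 48 h (-0.63 ± 0.14, edgeR adjusted p = 0.0371) and 0.659-fold at 72 h (0.0683). Whether these 2 genes changed differently in NTD was tested at 48 and 72 h only, and Psmb9 differed by -0.84 at 48 h (unadjusted p = 0.00195, edgeR adjusted p = 0.979). The Psmb9 call was lost in DESeq2 (adjusted p = 0.0872) and in 6 of 18 fits without 1 library, and the Tapbp call in 11 of 18. The 5 Ser2p calls against 0 h fell to 0 without 0 h replicate 1 or 4, and to 2 or 3 without 24 h replicate 2 or 3, 48 h replicate 2 or 3, 2 h replicate 4, 4 h replicate 3 or 4, or any 6 h replicate.

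**Figure D3:**
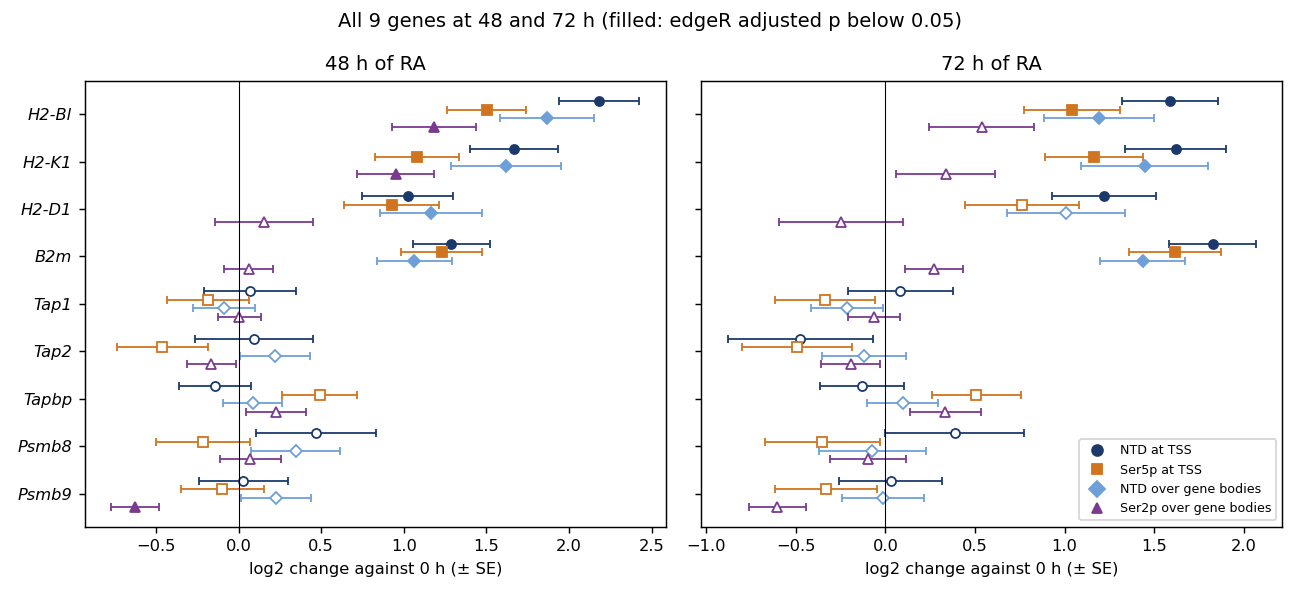
Log2 change against 0 h with its standard error (x axis) for the 9 genes (rows) in the 4 tables, at 48 h (left) and 72 h (right); filled symbols have an edgeR adjusted p under 0.05. H2-Bl, H2-K1, H2-D1 and B2m lie to the right in NTD and Ser5p at both times, and the 5 genes of peptide supply lie within -0.47 and 0.39 in NTD at TSS at 72 h.

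The authors' deposited table gives its own log2 changes and adjusted p for NTD at TSS. In the authors' deposited table H2-Bl changed by 0.04 at 2 h (adjusted p = 1), 0.26 at 4 h (0.0198), 0.49 at 6 h (0.000488), 0.76 at 48 h (5.41e-05) and 0.36 at 72 h (0.00399). H2-K1 changed by 0.83 at 48 h (0.034) and 0.79 at 72 h (0.0341), H2-D1 by 0.76 at 72 h (0.0807) and B2m by 1.16 at 72 h (0.000956) in the authors' deposited table. For B2m at 72 h it gives 1.02 in Ser5p (0.00018), 0.74 in NTD over gene bodies (0.000298) and 0.18 in Ser2p (0.874), again values of the authors' deposited table. At 24 h the authors' deposited table has adjusted p of 0.136 for H2-Bl and 1 for H2-K1 and B2m, and at 48 h 0.34 for H2-D1 and 0.0643 for B2m. Of the 14 edgeR calls against 0 h in NTD at TSS, 7 have an adjusted p under 0.05 in the authors' deposited table and 7 do not, and its log2 changes are smaller.

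Other genes of the pathway were read from lists at the TSS. Among 22 other class I heavy chain and class I-like genes, 18 were tested in NTD at 72 h, and 2 rose and 1 fell, beside 5.66% and 3.47% of all transcripts. H2-Q4, a non-classical heavy chain gene, went from a mean of 12.9 to 28.2 CPM (2.29-fold, edgeR adjusted p = 0.00762), H2-L, the other gene that rose, held the reads of H2-D1, and H2-M5 went from 46.3 to 23 CPM (0.48-fold, 0.00323). The list's median log2 change was 0.11, against -0.04 over all transcripts. Without both libraries that stood apart these 72 h calls did not hold. That fit sets 1 library at 72 h against 1 at 0 h, so it cannot decide whether the genes changed. From 6 h to 48 h H2-Q4 rose (log2 0.89, edgeR adjusted p = 0.0127) and H2-M5 fell (-1.42, 1.12e-05) with all libraries. In Ser5p at 72 h H2-Q4 rose (0.97, 0.0445), H2-M5 fell (-1.34, 0.000242) and H2-Q1 fell.

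Of 8 genes of peptide loading and trimming, 2 rose in NTD at 72 h, where 5.66% of all transcripts did: Hspa5, a chaperone of the endoplasmic reticulum (1.66-fold, edgeR adjusted p = 0.0256), and Pdia3, which sits with tapasin in the loading complex (1.58-fold, 0.0378). Both also rose in Ser5p (log2 0.94 and 0.96). Calreticulin (Calr) was 1.27-fold higher, which did not pass (0.424). Without both libraries, where 1 library at 72 h is set against 1 at 0 h, these 2 calls did not hold. The log2 changes of Hspa5 and Pdia3 were then 0.64 and 0.58, against 0.73 and 0.66 with all libraries. Of 8 proteasome partners, 0 were called in edgeR (2 at an unadjusted p under 0.05, 0 of 8 in DESeq2). Psmb10, the third replaceable subunit of the immunoproteasome, was 1.67-fold higher with an adjusted p of 0.112.

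Of 26 regulators of class I and interferon signalling genes, 6 rose in NTD at 72 h and 0 fell, beside 5.66% and 3.47% of all transcripts, with a median log2 change of 0.39: Irf1, an interferon regulatory factor (1.33, edgeR adjusted p = 0.000129), Irf8 (1.06, 0.0106), the interferon receptor gene Ifngr1 (0.76, 0.0459), and the kinase genes Jak1 (1.06, 0.00164), Jak2 (0.99, 0.0165) and Tyk2 (0.85, 0.00561). DESeq2 called 4 of the 6, without Ifngr1 and Jak2. Without both libraries, where 1 library at 72 h is set against 1 at 0 h, these 6 calls did not hold. The log2 change was then 0.77 for Irf1 and 1.10 for Jak1. With 1 library a side, that fit cannot decide whether the 6 genes changed. In Ser5p, 5 of 26 rose and 1 fell, beside 5.1% and 3.87% of all transcripts, the risers including Irf1 (1.19, 0.00125), Jak1 (0.89, 0.0221) and Socs1, an inhibitor of this signalling (0.88, 0.0135), and Irf2 fell (-1.02, 0.0333, or 0.0711 in DESeq2). In NTD the same Irf2 transcript was at 0.87 at 72 h (edgeR adjusted p = 0.0931) and rose from 6 h to 48 h (1.22, 0.00544). Of 18 tested interferon-induced genes, 0 rose and Ifitm2 fell in NTD at 72 h (2 at an unadjusted p under 0.05, 0 of 9 called in DESeq2), with a median log2 change of -0.13. Isg15 changed by -0.32 with an adjusted p of 0.72. Of 8 tested MHC class II genes, 0 were called (1 at an unadjusted p under 0.05, 0 of 2 in DESeq2). Genes named here that are not among the lists' smallest p-values over the time course were chosen after their values were seen: H2-Q1, Irf1, Irf2, Irf8, Jak2, Tyk2 and Ifitm2.

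**Figure D4:**
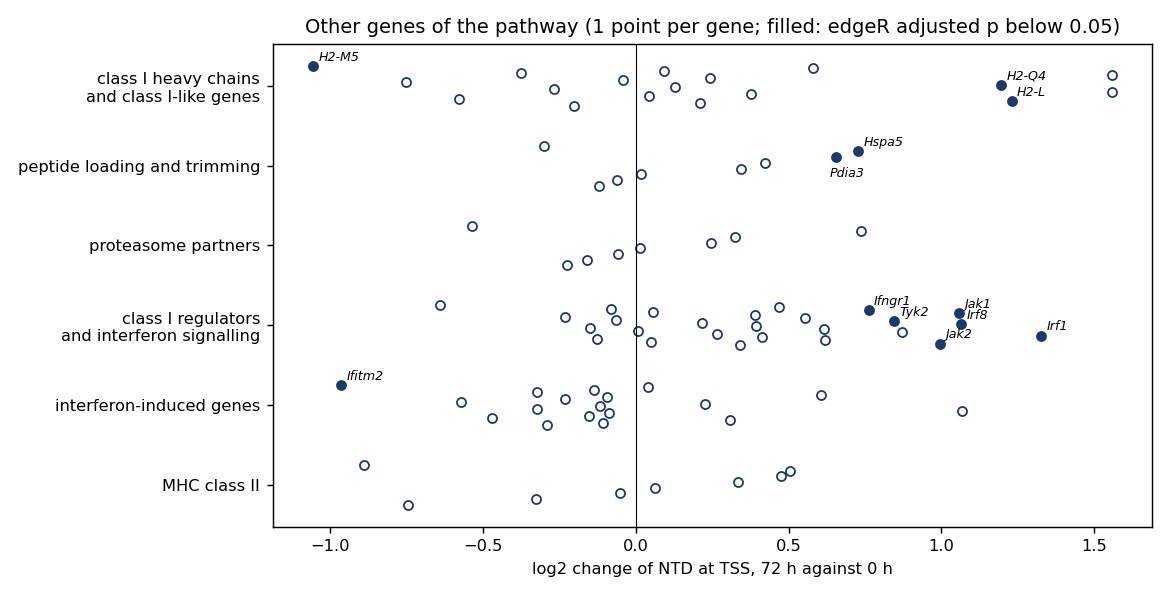
Log2 change of NTD at TSS at 72 h against 0 h (x axis) for the tested genes of 6 lists (rows), 1 point per gene, spread vertically to keep points apart; filled, named points have an edgeR adjusted p under 0.05. In the row of regulators 6 points are filled, all to the right, and in the row of interferon-induced genes the 1 filled point, Ifitm2, lies at -0.97.

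The patterns most like H2-Bl and B2m were looked up over the 17 NTD libraries at TSS, among 25836 transcripts with a mean of at least 5 CPM, by Pearson's r of log2 CPM. Those nearest to H2-Bl were Mdk (r = 0.924), Pbx2 (0.893) and Nrip1 (0.887). Their rank correlations were lower (Spearman's rho of 0.730, 0.716 and 0.694). Mdk, a heparin-binding growth factor gene, had means of 45.3 CPM at 0 h, 88.2 CPM at 6 h and 89.4 CPM at 72 h. Those nearest to B2m were Id3 (r = 0.951), Actn1 (0.949) and Polr3d (0.949), with rho of 0.8897, 0.8725 and 0.8971. Id3 had 69.5 CPM at 0 h, 75.0 CPM at 6 h and 182 CPM at 72 h. The points share libraries, depth and time, so r describes likeness only.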

How the data were processed

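Chromatin immunoprecipitation followed by sequencing measured Pol II in 53 libraries of E14 cells, grouped by antibody and hours of RA from the labels. Per the submitters' processing notes, reads were handled with Bowtie2, SAMtools, MACS2 and DESeq2 on mm10, with dm6 also named. The sources used here give neither their versions nor the counting tool. The authors deposited raw counts per transcript, a normalized signal that equals the raw count times 1 factor per library, FPKM values over gene bodies, and their own log2 changes and adjusted p-values. In all, 42 further columns of values per sample or per group were not used. Transcripts with no symbol (80 to 106 per table, 0.0166% to 0.0761% of reads) were kept in the fits and left out of the likeness ranking.

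Each table of raw counts, as deposited by the authors, was fitted whole in edgeR 4.0.16 (filterByExpr, TMM, quasi-likelihood test, time as a factor, no block, limma 3.58.1 and R 4.3.3), with Benjamini-Hochberg adjustment over all transcripts tested and a threshold of 0.05. CPM are counts over the TMM-scaled library size, intervals are at 95%, and the SE is that of the log2 change. The change in Ser5p or Ser2p was set against that in NTD by an interaction term. Alternatives were DESeq2 1.42.0, the authors' scale factors, no count filter, the replicate number as a block, each library left out, and both NTD libraries that stood apart left out. The last of these, and DESeq2, were added for the lists after the data had been seen. So was a block for libraries of 2 antibodies with the same hour and number in the interaction fit. The 9 genes and the gene lists were chosen with earlier results of these data known. From a list, at most 3 genes were named, those with the smallest adjusted p over the time course in NTD gene bodies, apart from exceptions given in the text. Likeness used CPM plus 0.5, and left out genes within 2 kb of the gene itself. The fit was also run on simulated counts for NTD at TSS, with the common spread of the main fit and known changes at 72 h. Against 0 h it called 4 of 50 transcripts changed 1.5-fold and 19 of 50 changed 2-fold. It called 49 of 50 changed 3-fold, 50 of 50 changed 4-fold, and 4 of 31286 unchanged ones. The changed transcripts had a mean of at least 5 CPM, and all simulated libraries shared 1 mean profile and 1 spread. No simulated library stood apart as NTD 0 h replicate 4 and 72 h replicate 3 did. These counts therefore do not give the rates of missed or false calls in the real libraries.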

Additional observations from a re-analysis of the deposited data

How the results depend on the processing

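No direction of a called result reversed under the alternatives run. In NTD at TSS the 14 calls against 0 h were 8 to 14 with 1 library left out (8 without 0 h replicate 4), 7 without both libraries that stood apart, 12 in DESeq2 and 13 with the authors' scale factors. The 2 calls of 48 h against 6 h and 72 h against 48 h were 2 to 4 with 1 library left out and 1 with the authors' scale factors, and the 4 for any change stayed 4. In Ser5p these 3 counts were 10 (4 to 12 with 1 library left out), 3 (2 to 3) and 4 (3 to 4). In NTD over gene bodies they were 8 (1 to 11, with 12 in DESeq2 and 2 without both libraries), 1 (0 to 3, with 2 in DESeq2, 0 with the authors' scale factors and 2 without both libraries) and 3 (2 to 5). In Ser2p they were 5 (0 to 6, and 3 in DESeq2), 1 (0 to 2, with 0 in DESeq2 and 2 with the authors' scale factors) and 2 (0 to 2, and 1 in DESeq2). The difference between Ser5p and NTD gave 0 calls in every fit run. That between Ser2p and NTD gave 0 to 1 with 1 library left out. The cause of these shifts was not tested.

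With the replicate block the calls against 0 h were 11 in NTD at TSS, 8 in Ser5p, 6 in NTD over gene bodies and 0 in Ser2p, where the other 2 counts were also 0. To check the numbers, the mean log2 CPM of each time group was subtracted, and the remaining deviations were correlated between libraries of different times. This r does not describe how alike the libraries were as a whole. Its median was 0.107, 0.0957, 0.192 and 0.0582 for the same number, and -0.0467, -0.0345, -0.105 and -0.0137 for different numbers. Deviations within a time group cancel out, so the values for same and different numbers are not independent. Among same-number pairs r was over 0.1 in 18 of 32, 18 of 37, 26 of 32 and 17 of 37. By these deviations, 8 of 17, 13 of 18, 8 of 17 and 11 of 18 libraries were closest to their own number. The numbers were not taken as pairs in the main fits, so those fits do not account for spread shared by number. A fit chosen after seeing the data took NTD and Ser5p or Ser2p libraries of the same hour and number as a paired block. The Ser2p difference then gave 2 calls, both of B2m. These did not hold without both libraries that stood apart, a fit with 1 NTD library at 0 h and 1 at 72 h. That fit cannot decide whether B2m differed. Deviations from the group mean of log2 CPM were correlated between NTD and Ser5p or Ser2p libraries of the same hour and number. The median r was 0.14 (Ser5p, over 0.1 in 10 of 17 pairs) and 0.266 (Ser2p, 14 of 17). In these, 15 and 14 of 17 NTD libraries were closest to their own number. At 0, 24 and 72 h each group has 2 libraries, whose deviations from the group mean mirror each other. Both then give the same r, so these pairs are not separate observations. No pair of replicates was within sampling noise (chi-square per degree of freedom of 1.30 to 32.2, the highest for NTD over gene bodies at 72 h). For 48 h replicate 2 in NTD over gene bodies it was 16.4 against replicate 1 and 12.2 against replicate 3. With 2 or 3 libraries a group and 6 to 445 reads per gene, the 95% intervals of the low genes span 2-fold changes.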
